A study of Homo sapiens with 6 samples.

Results

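The genes described here encode the proteins of the cytosolic ribosome, read in HBEC3kt cells, a line of immortalized human bronchial epithelial cells. Members were the Ensembl genes of the deposited isoform table whose symbol is RPL or RPS followed by a number, with RPLP0, RPLP1, RPLP2 and RPSA, and with at least 15 reads in total. Of 11034 Ensembl genes in the table, 81 had such a symbol and 80 met the minimum, 32 of the small subunit and 48 of the large subunit. RPL36A lay just outside the minimum with 14 reads, and RPL39 was the lowest member inside it with 70 reads.

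The libraries hold poly(A) RNA copied by Smart-Seq2 reverse transcription and read on a nanopore MinION, so that a read follows a cDNA over its splice junctions. There were 3 libraries of cells with the S34F form of the splicing factor U2AF1 (isolate 1 in B1, isolate 2 in B1, isolate 2 in B2) and 3 of wild-type cells in the same layout, numbered replicates 1, 2 and 3 in that order. The design text asks how RNA processing differs with the U2AF1 mutation. The labels do not say how the allele was introduced, how isolates were derived or what B1 and B2 denote. Each genotype rests on 2 isolates, so the p-values measure the spread between these libraries, which may be partly technical.

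A ribosome joins a small subunit, which decodes the mRNA, to a large subunit, which forms the peptide bond, and most of their proteins are made from 1 gene each at matched amounts. Ribosomal protein mRNAs are short, abundant and start with a run of pyrimidines, the 5′ terminal oligopyrimidine (TOP) motif, through which TOR signalling and LARP1 control their translation. Many of their introns carry small nucleolar RNAs (snoRNAs), which guide the modification of ribosomal RNA. U2AF1 is the small subunit of U2AF and reads the AG at the end of an intron. The S34F change is known to alter its preference for the base just before that AG.

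The libraries held 811255, 451540 and 1014868 reads in U2AF1 S34F cells, against 1720292, 1286512 and 1584167 reads in wild-type cells, and wild-type libraries gave 66.8% of all reads. Levels are reads per 1e6 reads of the scaled library size (CPM), with the TMM scaling explained below. U2AF1 itself had 536, 418 and 242 CPM in S34F cells, against 500, 569 and 303 CPM in wild-type cells, with overlapping groups. The counts carry no base calls and so do not check the allele. All 10 basal airway epithelial markers listed, among them KRT5, were read, summing to 5569 to 8801 CPM in S34F and 5747 to 6733 CPM in wild-type libraries. Of these 10, 7 had a log2 fold change above 0, with a median of 0.23. KRT5, a keratin of basal cells, had 1427, 739 and 918 CPM in S34F cells, against 418, 289 and 531 CPM in wild-type cells (log2 fold change 1.34 ± 0.35, SE; edgeR Benjamini-Hochberg adjusted p = 0.0512). LAMB3, a laminin chain, was the one marker of the list that was called, and it was lower in S34F cells (−1.39 ± 0.33, SE; edgeR adjusted p = 0.0290). LAMB3 was not called with the libraries of isolate 2 summed within each genotype, where edgeR called 0 of 8614 tested genes. Secretory, fibroblast, blood and endothelial markers had 0 reads, and 1 of 4 ciliated markers was read, at no more than 2.83 CPM.

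The 80 genes took 652455 reads, 9.50% of all reads. Levels are given as CPM scaled by TMM, which is the trimmed mean of M values and sets libraries to a common scale, and they are not divided by length, since a nanopore read stands for 1 cDNA whatever its length. The mean level over the 6 libraries ran between 9.34 CPM for RPL39 and 10862 CPM for RPS14, with a median of 767 CPM. In all, 29 members exceeded 1000 CPM and 3 stayed under 50 CPM. RPS14 and RPL35 alone took 19.2% of the reads on ribosomal protein genes, and these with RPS20, RPL3 and RPS19 took 32.03%. Across the members the mean level was only weakly related to the length of the most-read isoform, with a Spearman rho of 0.20, given as a description.

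RPS14, a small subunit protein whose gene lies in the chromosome 5 region lost in the 5q- syndrome (chr5:149810352-149829574, hg19), had 24772, 7472 and 6256 CPM in S34F cells, against 9744, 12091 and 4838 CPM in wild-type cells. RPL35, of the large subunit, had 12449, 7314 and 3435 CPM in S34F cells, against 13944, 15043 and 3198 CPM in wild-type cells. RPS19, the small subunit gene most often mutated in Diamond-Blackfan anaemia, had 7839, 4341 and 1859 CPM in S34F cells, against 4234, 4139 and 1555 CPM in wild-type cells. In all of these genes the groups overlapped and both B2 libraries were the lowest of their genotype. The 5 lowest members were RPL39, RPS28, RPL22L1, RPS26 and RPL7L1, of which RPL22L1 and RPL7L1 are paralogues of RPL22 and RPL7. The median coefficient of variation of a member within a genotype was 40.8% in S34F cells and 31.6% in wild-type cells.

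**Figure D1:**
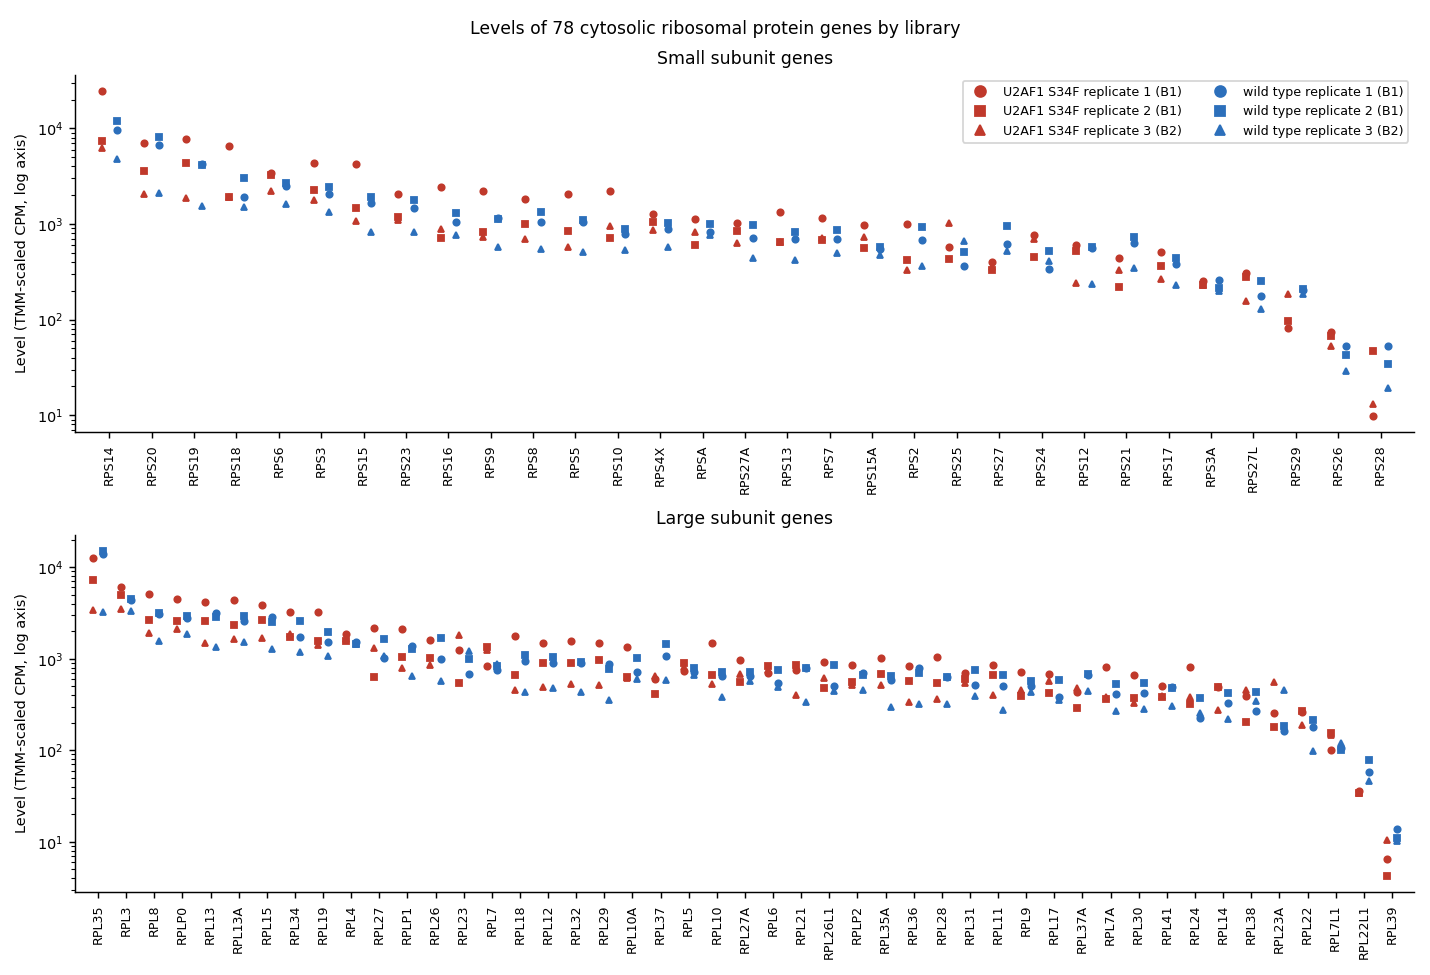
Level of 78 of the 80 genes in each library, as TMM-scaled CPM on a log axis, with S34F libraries in red to the left of wild-type libraries in blue for each gene and a marker shape per replicate. Genes are ordered by their mean level within each subunit, RPS14 and RPL35 lead, and the red circles of S34F replicate 1 lie on top for most genes.

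Start sites of the members were read from RefSeq (GRCh38.p14) to show the pyrimidine run of TOP mRNAs. Of the 80 genes, 65 had an entry, and 53 of those (81.5%) had a run of at least 5 bases, made only of C and T on the coding strand and counted from a C within 5 bases of a listed start. Counted per entry, 57 of 81 member entries (70.4%) held the run, against 21.1% of 35116 entries of all genes. The windows below run from 10 bases before the start to 15 bases from it, with the run in capitals, for the 2 most abundant members and for members described further on. RPS29 and RPS26 are shown as examples without a run that meets this rule. RPS26 has a stretch of C and T whose first C lies more than 5 bases from the listed start.
RPS14 chr5:150449725-150449749, minus strand: ccctcccaCTCTCTCTTTCCggtgt
RPL35 chr9:124861943-124861967, minus strand: cgcctaCTTCCTCTTTCCCTCggag
RPL24 chr3:101686704-101686728, minus strand: atgattCTCTCTTTCTTTTCgccat
RPS21 chr20:62387093-62387117, plus strand: ctagctgCTTCCTTTCTCTCTCgcg
RPS27 chr1:153990752-153990776, plus strand: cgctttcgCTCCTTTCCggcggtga
RPS29 chr14:49598696-49598720, minus strand: agcgcgcagctggcagcggtggttg
RPS26 chr12:56041908-56041932, plus strand: acataacctcgattttcttccgcca

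Ribosomal protein genes took 12.9%, 9.42% and 7.83% of the reads of S34F libraries, against 10.4%, 11.2% and 6.46% of wild-type libraries. The means were 10.05 ± 2.59% in S34F and 9.37 ± 2.55% in wild-type cells (SD, n = 3 each), and the groups overlapped (exact two-sided permutation test, p = 0.8, where 3 against 3 allows no p under 0.1). The difference was 0.34 percentage points among B1 libraries and 1.37 percentage points in B2. In bulk libraries of this kind, fewer cells with a transcript and less of it per cell cannot be told apart.

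The members moved together between libraries. S34F replicate 1 was the highest of the 6 libraries for 56 of the 80 genes, and wild-type replicate 3 was the lowest for 55. The same counts over all tested genes are not given here, so whether they are particular to the members was not tested. In the gene-level model, 18 members were lower in B2 than in B1 and 1, RPL23A, was higher (edgeR, Benjamini-Hochberg adjusted p under 0.05), where 11.8% of all 7033 tested genes were called lower and 14.4% higher. The median log2 difference of B2 over B1 was −0.70 over the members and −0.0017 over all tested genes. S34F replicate 1 also had a TMM factor of 0.768, against 0.946 to 1.14 in the other libraries. The part of this scaling in its high levels was not tested.

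**Figure D2:**
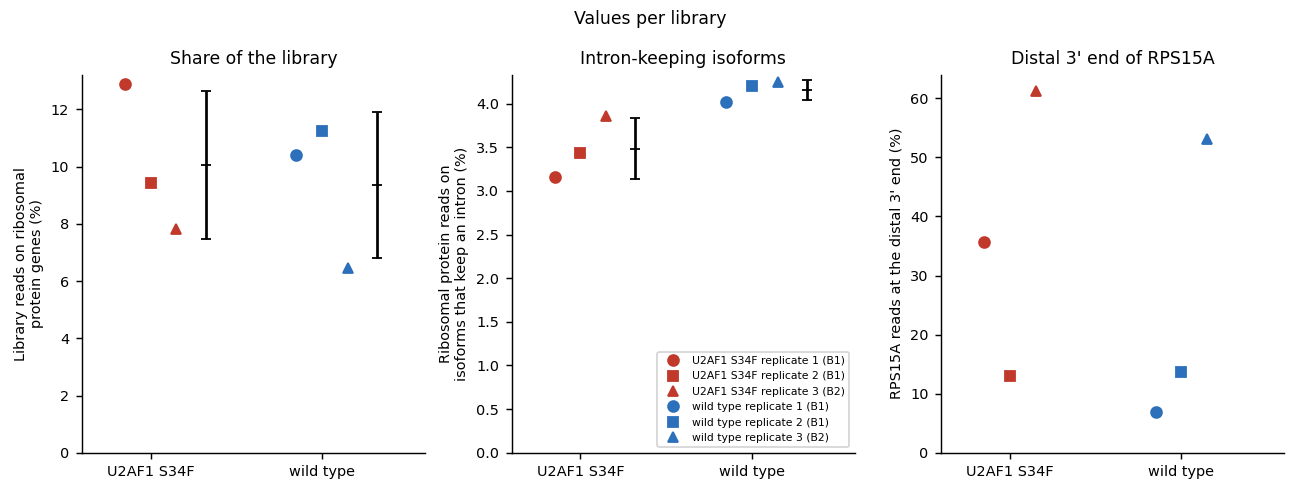
Percent of library reads on ribosomal protein genes (left), percent of those reads on isoforms that keep an intron (middle) and percent of RPS15A reads at the distal 3′ end (right), with 1 point per library and bars for mean ± SD of each genotype in the first 2 panels. The genotypes overlap on the left, with S34F replicate 1 highest at 12.9%, while in the middle all S34F points, up to 3.86%, lie below all wild-type points, from 4.02%.

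None of the 80 genes differed between genotypes after adjustment over all 7033 tested genes (edgeR quasi-likelihood test with a B1/B2 term, Benjamini-Hochberg adjusted p under 0.05), where 3.24% of all genes were called. DESeq2 and limma-voom called 0 members as well. With the libraries of isolate 2 summed within each genotype, edgeR called 0 members and 0 of all 8614 tested genes. Without the B1/B2 term it called 0 members and 2 of all 7033 genes. In the main fit 8 members had an unadjusted p under 0.05, 4 higher and 4 lower in S34F cells, where 17.0% of all genes had such a p. The differences leaned upward, with 66 of 80 log2 fold changes above 0, where 51.6% of all tested genes lay above 0. The median log2 fold change was 0.28 over the members and 0.02 over all tested genes, 0.36 over the 32 small subunit genes and 0.23 over the 48 large subunit genes. With library totals in place of TMM the members' median was 0.16 with 63 above 0, beside −0.06 over all genes, and with no filter on low counts it was 0.09 with 49 above 0, beside −0.22 over all genes. Without S34F replicate 1 the members' median was −0.01, and without S34F replicate 2 it was 0.42.

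The CPM of all 3 S34F libraries exceeded all wild-type libraries for 1 member, RPL4, where 5.10% of all tested genes did so. They lay below all wild-type libraries for 3 members, RPS27, RPS29 and RPL22L1, where 7.95% of all tested genes did so. An edgeR test of whether the genotype difference varied between B1 and B2 called 0 of all 7033 genes. No member had an unadjusted p under 0.05 there, where 0.839% of all genes, 59 of them, had one.

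RPS27, a zinc-finger protein of the small subunit (chr1:153963236-153964820, hg19), had the smallest gene-level p. It had 402, 333 and 352 CPM in S34F cells, against 621, 956 and 519 CPM in wild-type cells. All S34F libraries lay below all wild-type libraries, and the log2 fold change was −0.92 ± 0.31 (SE; edgeR Benjamini-Hochberg adjusted p = 0.139). With no filter on low counts it was −1.10 with an adjusted p of 0.0416 by the same edgeR test, and it was not called in any fit that left out 1 library.

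RPS29, another zinc-finger small subunit protein mutated in Diamond-Blackfan anaemia, had 82.1, 95.6 and 185 CPM in S34F cells, against 206, 211 and 186 CPM in wild-type cells. Its log2 fold change was −0.80 ± 0.31 (SE; edgeR adjusted p = 0.198), and the B2 libraries of both genotypes had nearly the same level. RPL22L1, the paralogue of RPL22, had 36.1, 33.98 and 34.004 CPM in S34F cells, against 57.8, 78.9 and 46.4 CPM in wild-type cells. RPL22 itself had 260, 268 and 190 CPM in S34F cells, against 181, 212 and 99.3 CPM in wild-type cells. The log2 fold changes were −0.77 ± 0.31 for RPL22L1 and 0.59 ± 0.27 for RPL22 (SE; edgeR adjusted p = 0.221 and 0.271), so the pair had opposite signs and neither passed the test.

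RPL37, of the large subunit, had 608, 416 and 651 CPM in S34F cells, against 1060, 1463 and 584 CPM in wild-type cells, and the groups overlapped through wild-type replicate 3. RPS21, of the small subunit, had 437, 221 and 333 CPM in S34F cells, against 627, 740 and 347 CPM in wild-type cells. Their log2 fold changes were −0.82 ± 0.37 and −0.72 ± 0.34 (SE; edgeR adjusted p = 0.268 and 0.300).

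Of the members with higher values in S34F cells, RPL24, a large subunit protein, had 807, 319 and 384 CPM in S34F cells, against 225, 376 and 257 CPM in wild-type cells. RPS10, a Diamond-Blackfan gene of the small subunit, had 2229, 707 and 960 CPM in S34F cells, against 789, 889 and 530 CPM in wild-type cells. In both, S34F replicate 1 was far above the other libraries and the groups overlapped. Their log2 fold changes were 0.80 ± 0.36 and 0.82 ± 0.38 (SE; edgeR adjusted p = 0.266 and 0.289), and without S34F replicate 2 they were 1.06 and 1.16 with edgeR adjusted p of 0.00879 and 0.00480. That fit called 4 of the 80 members and 655 of all 8595 tested genes.

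RPS26, a Diamond-Blackfan gene of the small subunit, had 73.9, 68.0 and 52.9 CPM in S34F cells, against 53.0, 42.4 and 29.1 CPM in wild-type cells, and overlapped only between S34F replicate 3 and wild-type replicate 1. RPS24, also mutated in that anaemia, had 764, 457 and 699 CPM in S34F cells, against 338, 519 and 407 CPM in wild-type cells. Their log2 fold changes were 0.67 ± 0.29 and 0.60 ± 0.32 (SE; edgeR adjusted p = 0.254 and 0.353).

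The acidic stalk, through which the large subunit recruits translation factors, is built from RPLP0, RPLP1 and RPLP2. Its log2 fold changes were 0.27 ± 0.34, 0.27 ± 0.34 and 0.10 ± 0.30 (SE, in that order), and RPSA, the laminin receptor protein of the small subunit, was at −0.01 ± 0.33, with none of them called. The 25 members listed as snoRNA hosts had a median of 0.21, and the 55 others 0.32. Members with the pyrimidine run had a median of 0.27 (n = 53) and those without it 0.34 (n = 12).

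**Figure D3:**
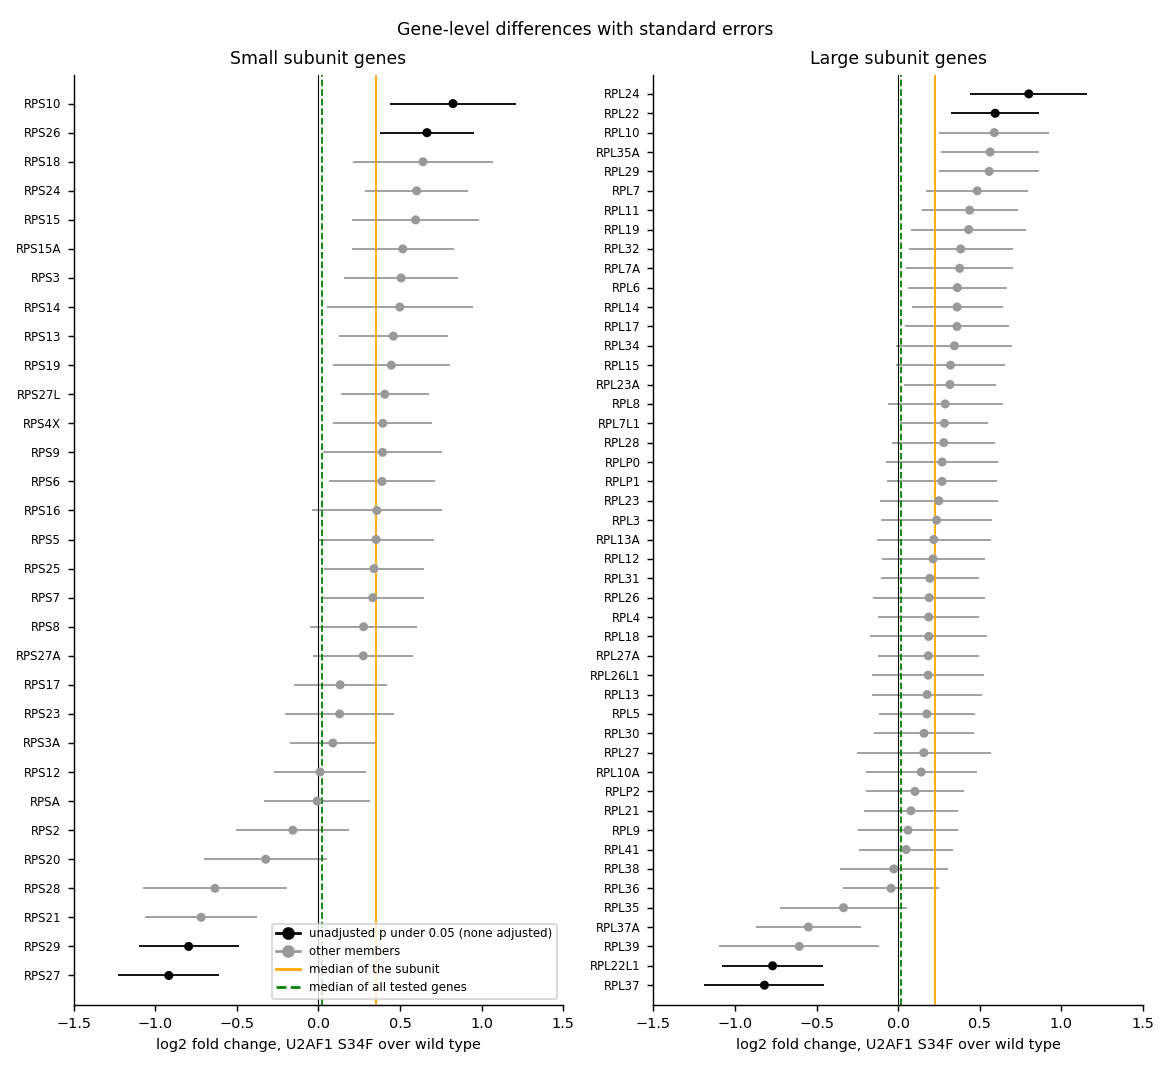
Log2 fold change of U2AF1 S34F over wild type with its standard error for 78 of the 80 genes, small subunit left and large subunit right, ordered by value. Black points had an unadjusted p under 0.05, none passed after adjustment, and the medians of the subunits over all 80 genes (orange, 0.36 and 0.23) lie above the median of all tested genes (green, 0.02).

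Lists of related genes were read in the same fit. None of the genes of these lists was called by edgeR after adjustment. Other mRNAs with a TOP motif, such as elongation factors, had a median log2 fold change of 0.38 with 15 of 16 tested genes above 0, led by HNRNPA1 at 0.93 and NACA at 0.71. Ribosome biogenesis factors, which assemble the subunits in the nucleolus, had a median of −0.18 with 12 of 32 above 0, among them FBL at 0.65 and GAR1 at −0.70. Mitochondrial ribosomal proteins had a median of 0.05 over 72 tested genes, with MRPL23 at 1.16 and MRPL33 at −1.38. TOR and LARP1 regulators had a median of 0.12 over 14 tested genes, with RRAGA at 0.79 and MYC at −1.01. FAU and RACK1, ribosomal components whose symbols the rule does not catch, were at 0.52 and 0.30.

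Near-identical copies limit some of these values. Loci named as pseudogenes or read-through copies of 56 members held 160 genes and 88015 reads, 13.5% of the number of reads on the members, and for 15 members these reads exceeded 10% of the member's own. Among these they came to 626% for RPS3A, 472% for RPS28, 285% for RPS2 and 206% for RPL10. No source used here says how reads were shared between such copies, so these levels are uncertain. For RPS27 the figure was 0.445% and for RPL37 0.470%.

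The table lists 1522 isoforms of the 80 genes, between 2 and 71 per gene with a median of 16, and 435 carry an annotated transcript identifier. The most-read isoform was annotated for 78 members. A median of 49.9% of a member's reads lay outside its most-read isoform, between 6.23% for RPL31 and 84.9% for RPL17, and RPL7L1, RPL7A, RPSA, RPL11 and RPL10 followed at 76.3% to 80.1%. Annotated isoforms took 75.9%, 74.2% and 75.3% of the reads in S34F libraries, against 75.03%, 74.98% and 75.8% in wild-type libraries, with overlapping groups.

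Isoform usage was called for none of 77 testable members (edgeR diffSpliceDGE, Simes p with Benjamini-Hochberg adjustment), where 0.615% of all tested genes were called. Unadjusted p was under 0.05 for 6 members, among them RPS21, RPS13, RPS27, RPL24 and RPS24, where 6.02% of all tested genes had such a p. Of 846 member isoforms tested for their level, 4 were called by edgeR at an adjusted p under 0.05, where 4.26% of all isoforms were called, and 68 had an unadjusted p under 0.05, where 17.0% of all isoforms did. Across the fits that left out 1 library, the number ran between 1 and 40. The 40 came without S34F replicate 2, out of 945 member isoforms tested, where 7.43% of all isoforms were called. The 1 came without wild-type replicate 2, out of 838 tested, where 1.33% of all isoforms were called. Without the B1/B2 term, 0 of the 846 member isoforms and 3 of all 13961 were called by edgeR, and 16 member isoforms had an unadjusted p under 0.05.

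An RPS27 isoform of 5 exons, annotated as ENST00000477151, had 5, 2 and 4 reads in S34F libraries, against 43, 58 and 31 reads in wild-type libraries. It was 1.46 ± 0.511% of RPS27 reads in S34F cells and 4.27 ± 0.808% in wild-type cells (SD, n = 3 each). The groups were far apart, and the log2 fold change of −2.48 ± 0.48 (SE; edgeR adjusted p = 0.00259) was called in all 6 fits that left out 1 library and with the replicate block (edgeR adjusted p = 0.00242). It was not called by limma-voom (adjusted p = 0.0878), in B1 libraries only (edgeR adjusted p = 0.0520) or without the B1/B2 term (edgeR adjusted p = 0.117). At equal depth, 0 of the 4 isoforms called in the main fit were called, this isoform included. A second RPS27 isoform, of 4 exons, was lower in S34F cells as well, at −1.45 ± 0.37 (SE; edgeR adjusted p = 0.0226). It was called in 3 of those 6 fits and not without S34F replicate 3, wild-type replicate 2 or wild-type replicate 3, nor in B1 libraries only (edgeR adjusted p = 0.203) or at equal depth (edgeR adjusted p = 0.0756).

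The other called isoforms belong to the large subunit. A 6-exon RPL10 isoform had 94.0, 58.0 and 26.1 CPM in S34F cells, against 14.4, 19.5 and 13.9 CPM in wild-type cells, with no overlap (log2 fold change 1.80 ± 0.39, SE; edgeR adjusted p = 0.00633). Leaving out wild-type replicate 1 or 2 ended this call, as did equal depth (edgeR adjusted p = 0.125). An unannotated 4-exon RPL37 isoform had 17.5, 11.6 and 20.4 CPM in S34F cells, against 51.9, 88.8 and 38.6 CPM in wild-type cells (−1.72 ± 0.41, SE; edgeR adjusted p = 0.0137), and was not called without S34F replicate 1 or wild-type replicate 2, in B1 libraries only (edgeR adjusted p = 0.0520) or at equal depth (edgeR adjusted p = 0.0876).

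From the exon chains of the isoforms, 1262 cassette exons, alternative splice sites and retained introns were built in the members, and 969 in 78 genes had at least 10 informative reads in every library. The test called 19 of them in 17 genes (edgeR on reads with and without the form, Benjamini-Hochberg adjusted p under 0.05 over all events), where 1.15% of all 15662 tested events were called. The form was higher in S34F cells in 6 and lower in 13, where 0.351% of all tested events were called higher and 0.798% lower. The calls were 6 of 322 cassette exons (1.86%, against 1.20% of all), 3 of 169 alternative 5′ splice sites (1.78%, against 0.685%), 2 of 192 alternative 3′ splice sites (1.04%, against 1.11%) and 8 of 286 retained introns (2.80%, against 1.39%).

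With the replicate number as a block, 5 of the 19 were called, where 106 of all 15662 tested events were. Among the 5 were the retained introns of RPS21, RPL24 and RPL29 and the RPS9 cassette exon. By limma on the log odds none of the 969 was called, where 0.00% of all 15662 events were, and 76 had an unadjusted p under 0.05, where 9.16% of all events did. In the edgeR test, 158 of the 969 had an unadjusted p under 0.05, where 9.56% of all events did. In 14 of the 19 the genotypes did not overlap. The 19 were picked by a test of the same difference, so this count is not separate support. The share of all tested events without overlap is not given here. The RPS21 intron was called in all 6 fits that left out 1 library, the RPL24 intron in 4, and 4 events in none. Leaving out S34F replicates 1, 2 and 3 in turn kept 5, 11 and 2 of the 19 calls, and leaving out wild-type replicates 1, 2 and 3 kept 8, 4 and 2.

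For each intron kept by some reads, the sentences give the percent of reads crossing it that kept it. The last 20 bases of the introns described below are shown, because U2AF1 contacts this end. They were read from GENCODE transcripts of the gene with an exon across the intron end, after a match by intron length. Capitals mark the 3 bases at the splice site, the base before the AG and the AG. Coordinates are those of the deposited models (hg19).
RPS21 intron 5, chr20:60963421-60963512, plus strand: tccttttcccctggttcTAG
RPL24 intron 1, chr3:101405402-101405515, minus strand: actttcactttttgttgCAG
RPLP2 intron 1, chr11:810040-810233, plus strand: gtcctctccgcccgcctCAG
RPL38 intron 1, chr17:72199885-72200056, plus strand: ccgaggactgtttcccgCAG
RPS27 intron after its 121-base exon, chr1:153963511-153963590, plus strand: tgcatttctgtccctctTAG
RPS9 intron after its 172-base exon, chr19:54710593-54711265, plus strand: caccttgtcgctgcttcCAG

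RPS21 kept its 92-base intron 5, which ends in TAG, in 9.40%, 14.4% and 9.07% of reads in S34F cells, against 3.61%, 4.13% and 3.43% in wild-type cells. Every S34F library was above every wild-type library. The means were 10.96 ± 3.002% in S34F cells and 3.72 ± 0.362% in wild-type cells (SD, n = 3 each), with a log2 odds ratio of 1.57 ± 0.29 (SE; edgeR adjusted p = 3.35e-05, and 0.00138 with the replicate block). The counts behind them were 25, 15 and 32 kept reads in S34F and 38, 36 and 20 in wild-type libraries.

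RPL24 kept its 114-base intron 1, which ends in CAG, in 5.58%, 6.57% and 3.18% of reads in S34F cells, against 11.6%, 12.6% and 11.4% in wild-type cells. Every S34F library was below every wild-type library, and the log2 odds ratio was −1.40 ± 0.28 (SE; edgeR adjusted p = 0.000287, and 0.0151 with the replicate block). It was not called without S34F replicate 3 or wild-type replicate 3.

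RPLP2, of the acidic stalk, kept its 194-base intron 1 in 2.92%, 4.05% and 2.73% of reads in S34F cells, against 6.93%, 5.99% and 7.48% in wild-type cells (log2 odds ratio −1.20 ± 0.28, SE; edgeR adjusted p = 0.00407, and 0.0723 with the replicate block). RPL29, of the large subunit, kept its 915-base intron 3 in 1.74%, 0.922% and 0.984% of reads in S34F cells, against 3.67%, 3.31% and 4.03% in wild-type cells (−1.495 ± 0.38, SE; edgeR adjusted p = 0.0119). In both, all S34F libraries were lower than all wild-type libraries. Of the 6 fits that left out 1 library, RPLP2 was called in 1 and RPL29 in 2.

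RPL38, RPS27 and RPS9 had called introns that were kept more often in S34F cells. The RPL38 and RPS9 introns end in CAG and the RPS27 intron ends in TAG. RPL38, of the large subunit, kept its 172-base intron 1 in 9.33%, 3.41% and 4.77% of reads in S34F cells, against 3.95%, 2.13% and 2.22% in wild-type cells, with overlap (edgeR adjusted p = 0.0447). Each S34F library was above the wild-type library of its number, but the intron was called in 1 of the 6 fits that left out a library and not with the replicate block (edgeR adjusted p = 0.325). The RPS27 and RPS9 introns begin at 5′ splice sites that few reads use, so that only 18 to 202 and 18 to 114 reads per library bear on them. RPS27 kept its 80-base intron in 15.2%, 27.8% and 23.3% of these reads in S34F cells, against 7.59%, 5.94% and 2.88% in wild-type cells (edgeR adjusted p = 0.0260). RPS9 kept its 673-base intron in 16.2%, 16.7% and 13.3% of them in S34F cells, against 5.56%, 1.75% and 1.47% in wild-type cells (edgeR adjusted p = 0.0448). The genotypes did not overlap in these last cases, and neither was called with the replicate block, where the edgeR adjusted p was 0.0599 for RPS27 and 0.141 for RPS9. Kept reads were few, 5, 5 and 7 in S34F and 12, 12 and 3 in wild-type libraries for RPS27. For RPS9 they were 6, 3 and 4 in S34F and 5, 2 and 1 in wild-type libraries. Reads that spliced the RPS27 intron are those of the called RPS27 isoforms above. Most reads that spliced the RPS9 intron include the 172-base exon described below. These introns are therefore not observations separate from those forms.

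Beyond the called events, 203 of the 286 tested retained introns of members had a log2 odds ratio below 0, with a median of −0.30, against a median of −0.05 over all 2519 tested retained introns, of which 46.5% lay above 0. Summed per library, isoforms that keep an intron took 3.16%, 3.44% and 3.86% of ribosomal protein reads in S34F cells, against 4.02%, 4.20% and 4.25% in wild-type cells. All S34F libraries were lower, with a mean of 3.49 ± 0.350% in S34F and 4.16 ± 0.118% in wild-type cells (SD, n = 3 each; exact two-sided permutation test, p = 0.1, the smallest that 3 against 3 allows). The difference was −0.81 percentage points among B1 libraries and −0.39 in B2, and −0.67 both over reads and with equal weight for each member.

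This grouping was chosen after values had been seen. Of 1145 introns of member isoforms, 390 could be given the base before the AG, which was C in 226, T in 141, A in 20 and G in 3. A base could be read only where an annotated transcript of the gene has an exon across the intron end. The introns with a base are therefore a selected part of all introns. Of the tested retained introns that most reads spliced out, 89 had C and 46 had T. Of those with C, 5 were called, 2 higher and 3 lower in S34F cells. Of those with T, 2 were called, 2 higher and 0 lower, beside 8 called of all 236 such introns. Introns with C were kept, as a mean over introns, in 6.32%, 6.52% and 7.01% of reads in S34F cells, against 7.68%, 7.55% and 7.80% in wild-type cells. Introns with T were kept in 6.76%, 8.45% and 7.92% of reads in S34F cells, against 7.42%, 6.99% and 7.43% in wild-type cells. The S34F libraries were all lower than the wild-type libraries for C and overlapped with them for T. The 91 introns whose base was not read were kept in 16.07%, 16.69% and 17.14% of reads in S34F cells, against 18.60%, 17.89% and 20.86% in wild-type cells, again with all S34F libraries lower (exact permutation p = 0.1, two-sided). The same held over all 236 such introns, at 10.48%, 11.18% and 11.46% in S34F cells and 12.14%, 11.83% and 13.16% in wild-type cells (exact permutation p = 0.1, two-sided). Introns with C were thus not the only group with lower values in all S34F libraries.

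The difference between C and T introns, C minus T, was −0.44, −1.93 and −0.91 percentage points in S34F cells, against 0.25, 0.56 and 0.37 in wild-type cells, with no overlap (exact two-sided permutation test, p = 0.1, the smallest possible here). The genotypes differed in it by −1.49 percentage points over all libraries, −1.59 among B1 libraries and −1.29 in B2. It depended on how introns were weighted. With the reads of all introns pooled, so that abundant genes dominate, the genotypes differed by −0.19 percentage points and overlapped (exact p = 0.7), and with 1 intron kept per 3′ splice site by −1.02 (exact p = 0.1). The median log2 odds ratio was −0.47 for C with 73 of 89 below 0, and −0.14 for T with 27 of 46 below 0. Introns that carry an annotated snoRNA had a median of −0.38 (n = 29) and matched introns without one −0.39 (n = 153).

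**Figure D4:**
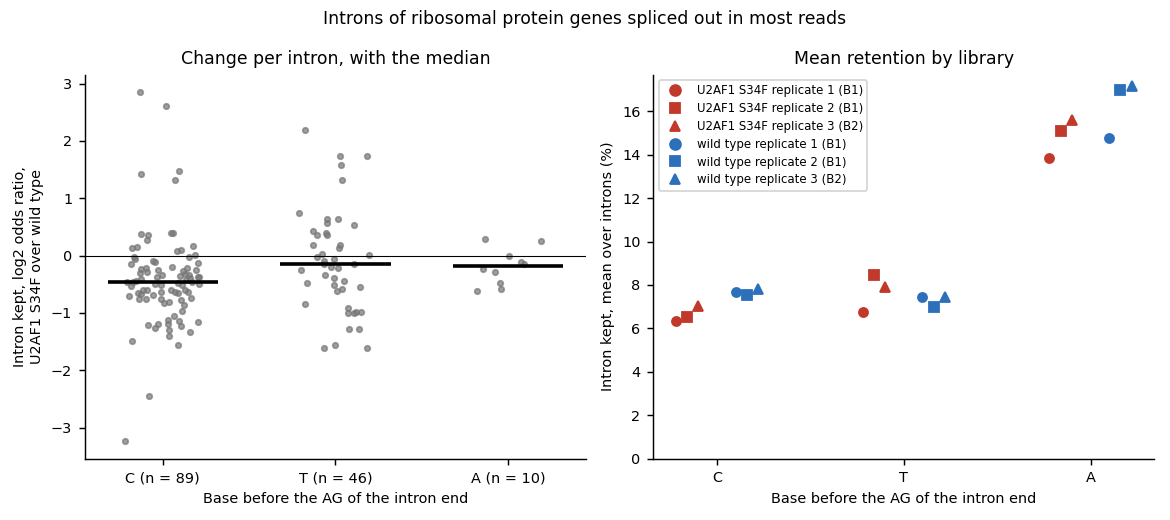
Left, log2 odds ratio of intron retention, U2AF1 S34F over wild type, for each tested intron that most reads splice out, by the base before its AG, with the median as a bar. Right, mean percent of reads keeping the intron in each library, where S34F points (red) lie below wild-type points (blue) for C, at 6.32% to 7.01% against 7.55% to 7.80%, and mix with them for T.

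Values are the percent of reads crossing an exon that include it. The RPS24 exon is printed whole because it is a 22-base exon near the 3′ end of the gene, which is known to be used differently among tissues, and the last 20 bases of the introns before it and before the exon that follows are shown with the same capitals as above, as are those of RPL10, RPS13 and RPS27.
RPS24 22-base exon, chr10:79799962-79799983, plus strand: TGAGCTGGAGATTGGATCACAG
RPS24 before the exon, chr10:79797063-79799961, plus strand: cttccccgccactgattCAG
RPS24 before the next exon, chr10:79799984-79800372, plus strand: ttctttctcttgattcaCAG
RPL10 before exon 5, chrX:153628283-153628804, plus strand: cttgcactaccccaatgTAG
RPL10 before the next exon, chrX:153628968-153629042, plus strand: ttctttccattgctcctTAG
RPS13 before exon 2, chr11:17099025-17099165, minus strand: gagactgcttctctcccCAG
RPS13 before the next exon, chr11:17098794-17098975, minus strand: tgctttctattccataaCAG
RPS27 before the 121-base exon, chr1:153963279-153963389, plus strand: ttaccctctgcacttctTAG

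RPS24 included this exon in 18.6%, 22.9% and 21.0% of reads in S34F cells, against 28.2%, 32.1% and 30.7% in wild-type cells. All S34F libraries were lower, with means of 20.8 ± 2.14% in S34F and 30.3 ± 1.97% in wild-type cells (SD, n = 3 each). The log2 odds ratio was −0.76 ± 0.18 (SE; edgeR adjusted p = 0.00281), with 210 to 727 informative reads per library. The adjusted p of the same edgeR model was 0.242 with the replicate block, and only 1 of the 6 fits that left out a library called it, the one without S34F replicate 2. The other 3 tested RPS24 events, cassette exons 2 and 3 and an alternative 5′ splice site, had edgeR adjusted p of 0.761 to 0.949.

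RPL10, a large subunit protein that joins late in assembly, included its 163-base exon 5 in 91.3%, 89.6% and 94.1% of reads in S34F cells, against 96.5%, 94.9% and 96.1% in wild-type cells. RPS13, of the small subunit, included its 49-base exon 2 in 98.4%, 96.4% and 98.6% of reads in S34F cells, against 93.2%, 94.5% and 97.4% in wild-type cells. RPL10 had no overlap (log2 odds ratio −1.07 ± 0.24, SE; edgeR adjusted p = 0.00170), while in RPS13 wild-type replicate 3 lay within the S34F range (1.41 ± 0.32, SE; edgeR adjusted p = 0.00254). The edgeR adjusted p with the replicate block was 0.0518 for RPL10 and 0.0548 for RPS13, and each was called in 1 of the 6 fits that left out a library, the one without S34F replicate 2.

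RPS9, a small subunit protein, included a 172-base exon within its intron 4 in 2.20%, 3.23% and 2.50% of reads in S34F cells, against 3.93%, 8.02% and 6.32% in wild-type cells. RPS27 included a 121-base exon within its intron 1 in 2.30%, 1.42% and 1.15% of reads in S34F cells, against 4.63%, 5.90% and 3.88% in wild-type cells. These exons are absent from the most-read isoform, and all S34F libraries included them less than all wild-type libraries. The log2 odds ratios were −1.28 ± 0.29 and −1.55 ± 0.43 (SE; edgeR adjusted p = 0.00265 and 0.0317), and of the 6 fits that left out a library, 2 called RPS9 and 0 called RPS27. The RPS27 reads with the exon are the 5, 2 and 4 S34F and 43, 58 and 31 wild-type reads of the 5-exon isoform above, so they are not a second observation. RPS20 included its 74-base exon 3 in nearly all reads, 99.4 ± 0.286% in S34F and 98.9 ± 0.275% in wild-type cells (SD, n = 3 each; edgeR adjusted p = 0.0492), with overlap.

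Of the 322 tested cassette exons of members, 203 had a log2 odds ratio above 0, with a median of 0.21, against a median of −0.01 over all 8301 tested cassette exons, of which 49.4% lay above 0.

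**Figure D5:**
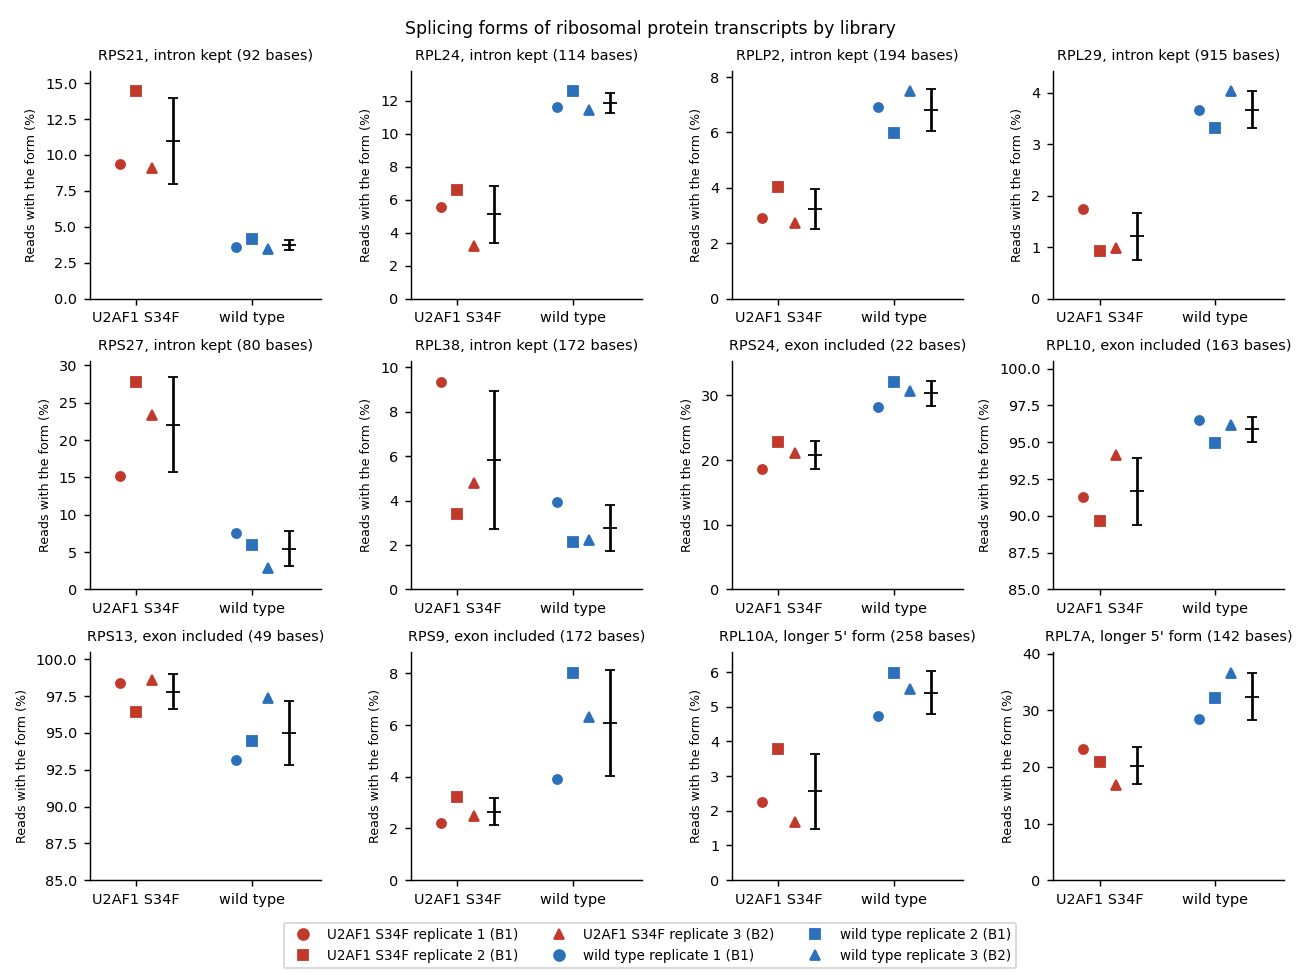
Percent of informative reads with the form named in each panel, 1 point per library, U2AF1 S34F (red) left of wild type (blue), with mean ± SD. RPS21 and RPS27 introns are kept more often in S34F cells, RPL24, RPLP2 and RPL29 introns less often, and the RPS24 22-base exon is included in 18.6% to 22.9% of reads against 28.2% to 32.1% (the RPL10 and RPS13 axes do not start at 0).

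The 3 called alternative 5′ splice sites all concern a longer exon form that was less used in S34F cells. RPL7A, a large subunit protein, used a site 142 bases into its intron 1 in 23.1%, 20.9% and 16.8% of reads in S34F cells, against 28.4%, 32.2% and 36.7% in wild-type cells. RPL10A, also of the large subunit, used a site 258 bases into intron 3 in 2.26%, 3.77% and 1.68% of reads in S34F cells, against 4.74%, 5.98% and 5.50% in wild-type cells. RPL26L1, the paralogue of RPL26, used a site 46 bases into intron 1 in 8.45%, 8.70% and 7.66% of reads in S34F cells, against 14.2%, 16.8% and 9.92% in wild-type cells. In all of these the genotypes did not overlap (edgeR adjusted p = 0.0383, 0.0212 and 0.0347, in that order), and with the replicate block the edgeR adjusted p was 0.107, 0.0767 and 0.365. The 6 fits that left out a library called RPL7A in 3, RPL10A in 2 and RPL26L1 in 0.

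At 3′ splice sites, RPL19 used a site that lengthens an exon by 5 bases in 26.2%, 31.4% and 38.0% of reads in S34F cells, against 43.5%, 36.1% and 44.7% in wild-type cells, with overlap (log2 odds ratio −0.65 ± 0.19, SE; edgeR adjusted p = 0.0448). Only reads whose intron starts at position 37358697 count here, 140 to 582 per library, of 727 to 2559 RPL19 reads. The site was called in 1 of the 6 fits that left out a library, the one without wild-type replicate 2, and not with the replicate block (edgeR adjusted p = 0.442). The other call, an RPS14 exon longer by 59 bases, concerned 0.0133% to 0.115% of reads in S34F cells and 0.105% to 0.238% in wild-type cells, with 2 to 19 reads behind each value (edgeR adjusted p = 0.0361). It was called in 0 of those 6 fits and not with the replicate block (edgeR adjusted p = 0.206). An 18-base longer RPL18 form was read 1, 0 and 0 times in S34F libraries and 7, 7 and 6 times in wild-type libraries (edgeR adjusted p = 0.113), and was not called.

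Other members with many isoforms had no called event. RPL3 had 49 tested events, the smallest edgeR adjusted p being 0.313, RPLP0 had 53 with 0.272, and RPL12 had 12 with 0.355. RPLP1 used the longer form of a 12-base alternative 5′ splice site in 97.5%, 91.5% and 93.6% of reads in S34F cells, against 89.0%, 89.0% and 89.8% in wild-type cells, without overlap but with an edgeR adjusted p of 0.413. Only 47 to 182 reads per library bore on it, of 490 to 2325 RPLP1 reads. The smallest adjusted p by the same edgeR test was 0.421 among 13 events of RPSA, 0.610 among 6 of RPL7L1, 0.792 among 2 of RPS27L and 0.961 among 2 of RPL22L1.

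Ends within 100 bases were merged, and 69 members had several ends while 11 had a single one. A median of 95.7% of reads used the main end, and it held at least 95% of reads in 42 members. Of 69 tested pairs of ends, 1 was called, where 0.816% of all tested pairs were called (edgeR, adjusted p under 0.05), and 9 had an unadjusted p under 0.05, where 7.73% of all pairs did.

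The called gene was RPS15A, of the small subunit, which used its distal end at position 18792618 of chromosome 16 (hg19), 1661 bases beyond the proximal one, in 35.6%, 13.0% and 61.3% of reads in S34F cells, against 6.93%, 13.7% and 53.2% in wild-type cells. All reads at the distal end belong to an unannotated 3-exon isoform, at positions 18792618 to 18799385. The most-read isoform has 5 exons and spans 18794279 to 18801656. The level of the 3-exon isoform was not called (edgeR adjusted p = 0.0635). In the share of distal reads the genotypes overlapped, and both B2 libraries were far above the wild-type B1 libraries. The log2 odds ratio was 1.16 ± 0.23 (SE; edgeR adjusted p = 0.000261), with 0.0411 under the replicate block and 0.778 by limma. It was not called without S34F replicate 1, S34F replicate 3, wild-type replicate 1 or wild-type replicate 3. The spread within a genotype, 36.6 ± 24.2% in S34F and 24.6 ± 24.97% in wild-type cells (SD, n = 3 each), exceeded the difference of the means. RPL27 and RPL34 came next with edgeR adjusted p of 0.129 and 0.158, and in both the distal end was used more in every S34F library than in any wild-type library, at 99.7 ± 0.0732% in S34F and 99.2 ± 0.211% in wild-type cells for RPL27 and 96.8 ± 0.659% in S34F and 95.01 ± 0.474% in wild-type cells for RPL34 (SD, n = 3 each).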

How the data were processed

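The authors deposited raw counts of long reads per isoform and library, whole numbers with no normalization found in them, and the isoform models. Coordinates are on hg19, the build named by the submitters' processing notes. The name of the model file points to FLAIR. Aligner, versions, filters, read assignment and use of strand are given by no source used here. Members, gene lists and the genes to be named were chosen with earlier results of these data known, so patterns reported before are not independent support.

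Counts were summed per gene and tested with edgeR 4.0.16 (R 4.3.3), quasi-likelihood, with TMM scaling, the low-count filter filterByExpr (10 reads, 15 in total), and B1/B2 as a term, leaving 3 residual degrees of freedom, over all genes, isoforms, events and ends. Benjamini-Hochberg adjusted p was held to 0.05. Usage was tested with diffSpliceDGE. Events and pairs of 3′ ends, if each library had 10 or more informative reads, were tested on 2 counts per library with library terms. The standard error is the size of the log2 value divided by the square root of F. Alternatives were limma 3.58.1 (log odds with an offset of 0.5, and voom), DESeq2 1.42.0, other scalings and filters, equal depth, B1 libraries, leaving out each library and a replicate block. Fits without the B1/B2 term and, at gene level, with the isolate 2 libraries summed were also run. Per-library percentages were compared by exact permutation tests.

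The replicate block, an alternative to the main tests, took the replicate number as pairing the libraries. The main tests and the permutation tests did not use this pairing. Deviations from the genotype means of same-numbered libraries correlated at 0.488, 0.161 and 0.848 for replicates 1, 2 and 3. The numbers also go with isolate and B1/B2 in the labels, and replicate 3 is the only pair in B2, so pairing and B1/B2 cannot be told apart there. The labels do not say that an S34F isolate matches the wild-type isolate of the same number.

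Genes to be named were every called member, those with the smallest p at each level, the highest and lowest by CPM, the most spread over isoforms and a fixed set of stalk and paralogue genes. Scripts in Python 3.11.15 (pandas 2.3.3, numpy 2.4.6, matplotlib 3.10.9) built events. The gene, usage and event fits were tried on simulated counts, which did not cover the building of events. Introns were matched to GENCODE introns of the same gene by intron length, which succeeded for 607 of 1145 member introns. Bases at their ends were read from GENCODE transcripts of the gene with an exon across the intron end. Start-site windows came from RefSeq GRCh38.p14. Depth ranged between 451540 and 1720292 reads, which leaves few reads for the lowest members. Results for a few named items are not reported here.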

Additional observations from a re-analysis of the deposited data

How the results depend on the processing

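Counts of called members were small and moved with the choice of libraries, and the cause was not tested unless stated. At gene level, no filter on low counts gave 1 call, RPS27, where 491 of all 24220 tested genes were called. Leaving out 1 library gave 0 to 4, with 4 without S34F replicate 2, where 655 of all 8595 tested genes were called. For isoforms, 1 was called in B1 libraries only, beside 184 of all 12816, and 1 at equal depth, beside 217 of all 6322. Fewer isoforms were testable at equal depth. Without the B1/B2 term 0 were called, beside 3 of all 13961, while leaving out 1 library gave 1 to 40. The isoform called at equal depth was not among the 4 of the main fit. For splicing events, B1 libraries only gave 2, beside 47 of all 15915, and limma on log odds 0, beside 0 of all 15662. The replicate block gave 5 of the 19, beside 106 of all 15662. Leaving out 1 library gave 2 to 16 events. The 16 came without S34F replicate 2, out of 1045 tested, beside 151 of all 17083. The 2 came when either B2 library was left out, beside 46 of all 15834 without S34F replicate 3 and 48 of all 15699 without wild-type replicate 3. For 3′ ends, B1 libraries only and limma gave 0 each, beside 4 of all 2352 and 0 of all 2329 pairs. Leaving out 1 library gave 0 to 2, with 2 without S34F replicate 2, beside 13 of all 2589 pairs. Usage calls were 0 under every setting run. The replicate block changed no gene-level, isoform, usage or end call.

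The difference in annotated isoform reads was −0.14 percentage points, and 1.28 with equal weight for members. With the reads of introns pooled, the difference was −0.46 percentage points for introns with C before the AG, −0.26 for those with T and −0.19 for C minus T. With 1 intron per 3′ splice site C minus T was −1.02. The difference in the share of library reads ran between −0.77 and 1.79 over the fits that left out 1 library. The results named for single genes, isoforms, events or ends gave 416 values on the same side of the threshold, 156 that lost a call, 7 that gained one and 0 with another sign. Depth limits rare forms most, since S34F replicate 2 has 451540 reads.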
